A study of Homo sapiens with 5 samples.

Results

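The vitamin D receptor gene VDR, its dimer partners RXRA and RXRB, the enzymes CYP27B1 and CYP24A1, the calcium-binding protein gene CALB1 and the calcium channel gene TRPV6 were followed across 5 Affymetrix arrays of PC-3 cells. These 7 genes were chosen by their place in vitamin D signalling and because CALB1 and VDR were lower on both arrays with a TRIB1 hairpin than on the array with a control hairpin. The values of that contrast are therefore a description and were not tested. All 7 had at least 1 probe set that carries their symbol alone, which gave 15 probe sets of 41091 such probe sets, and 7 genes of 19775.

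PC-3 is an established line of human prostate cancer cells that grow without androgen, taken from a metastasis in bone. According to the labels, 1 array held cells from ordinary flat culture (2D) and 1 held cells grown as spheroids, both without a hairpin. A further array held cells that express a short hairpin RNA against GFP (shGFP, the control), and 2 held cells in which TRIB1 was targeted, each by a hairpin of its own (shTRIB1-1, shTRIB1-2). Labels for all 5 samples state that nothing was added to the cells, so no treatment with vitamin D or calcitriol is on record. The study asked which genes depend on growth in 3 dimensions and which depend on TRIB1, a pseudokinase that brings proteins to the ubiquitin ligase COP1. The sources used here do not say whether a hairpin line is a clone or a pool, nor how spheroids were made.

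Vitamin D acts through VDR, a nuclear receptor that binds the hormone calcitriol and pairs with a retinoid X receptor on DNA. The enzyme encoded by CYP27B1 makes calcitriol, and the enzyme encoded by CYP24A1, whose gene is the classic target of the bound receptor, breaks it down. In calcium-transporting epithelia of gut and kidney, TRPV6 lets calcium enter the cell. In kidney, the calbindin encoded by CALB1 carries calcium through the cytosol. VDR is also present in prostate epithelium, where calcitriol slows growth in culture.

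The values are levels, meaning log2 of the RMA intensity that the authors deposited, and a difference of 1 is 2-fold. A level of 6 (an intensity of 64) was the minimum for a gene to enter a count, and it is not a firm bound on background. The hemoglobin gene HBB, which an epithelial line would not be thought to express, lay between 6.15 and 6.25 on the 5 arrays. The prostate-specific antigen gene KLK3, a gene of secretory prostate epithelium, was at 6.90 on every array. Levels near 6 are thus taken here as close to background. A level compares arrays for 1 probe set and does not compare genes.

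The labelled cell type was checked against epithelial markers. The keratin genes KRT8 and KRT18 and the adhesion gene EPCAM were high on all 5 arrays, KRT8 from 9.39 to 11.01, KRT18 from 12.48 to 13.19 and EPCAM from 11.28 to 12.23. CTNNA1, the alpha-catenin gene that PC-3 is known to lack, stood at 5.06 on every array. Markers of other tissues that make calbindin were low, with the kidney genes SLC12A3 and PVALB at no more than 5.15 and 3.01 and the neuroendocrine genes SYP and CHGA at no more than 5.41 and 3.75. Of the markers of kidney, nerve, blood and bone, HBB, the enolase gene ENO2 (7.10 to 8.26) and the bone regulator RUNX2 (8.10 to 9.66) were at or above 6 on all arrays, and RUNX2 was highest in the spheroid sample. UMOD and BGLAP were not analysed here. TRIB1 itself was at 11.97 with shGFP, at 11.91 with shTRIB1-1 and at 11.76 with shTRIB1-2, a mean difference of -0.13 ± 0.10 (SD, n = 2), and lower in 2D, at 11.04. A knockdown of TRIB1 is thus not seen at its probe set, which goes against the label of the 2 hairpin arrays. Below, shTRIB1-1 and shTRIB1-2 mean the arrays labelled so, and every direction drawn from them is that of the labelled array.

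Some control probe sets also set the arrays with a hairpin apart from those without. For the actin control, the signal at the 5′ end relative to the 3′ end was 0.436 with shGFP and 0.445 and 0.442 with the TRIB1 hairpins, but 0.184 in 2D and 0.131 in the spheroid sample. For the thr spike it was 0.271 to 0.315 with a hairpin and 0.152 to 0.157 without. For GAPDH the step was small, with 0.929 to 0.944 on the hairpin arrays, 0.895 in 2D and 0.763 in the spheroid sample. A comparison of a hairpin array with the 2D array therefore holds these differences too, and their part in the results was not tested. The 2D, spheroid and shGFP conditions had 1 array each, so no difference between them has a replicate check. In RNA from whole cultures, fewer cells that express a gene and less of its RNA per cell cannot be told apart.

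VDR was lower on both arrays labelled with a TRIB1 hairpin than on each of the other 3 arrays. By the probe set 204254_s_at, the brightest of 4, its level was 9.12 in 2D, 8.83 in the spheroid sample, 8.78 with shGFP, 7.76 with shTRIB1-1 and 7.50 with shTRIB1-2. The TRIB1 hairpin arrays did not overlap the rest, and the gap between the higher of the 2 and the lowest other array was 1.02. It differed from shGFP by -1.02 with shTRIB1-1 and by -1.28 with shTRIB1-2, with a mean of -1.15 ± 0.18 (SD, n = 2), or 2.22-fold.

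The probe set 204255_s_at gave the same order of arrays. VDR was at 8.95 in 2D, 8.42 in the spheroid sample, 8.39 with shGFP, 7.36 with shTRIB1-1 and 7.30 with shTRIB1-2. The mean difference of the hairpins from shGFP was -1.06 ± 0.04 (SD, n = 2). The SD is the spread between the 2 TRIB1 hairpin arrays and does not include that of the lone shGFP array.

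The other 2 probe sets of VDR showed almost no range. With 204253_s_at the level lay between 5.90 and 6.10, and with 213692_s_at between 5.12 and 5.16, which is near or below 6. They carry little signal from which a difference could be read, and the median over all 4 probe sets was -0.60 for the hairpins against shGFP. The call of VDR as 2-fold lower thus rests on the 2 brighter probe sets.

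**Figure D1:**
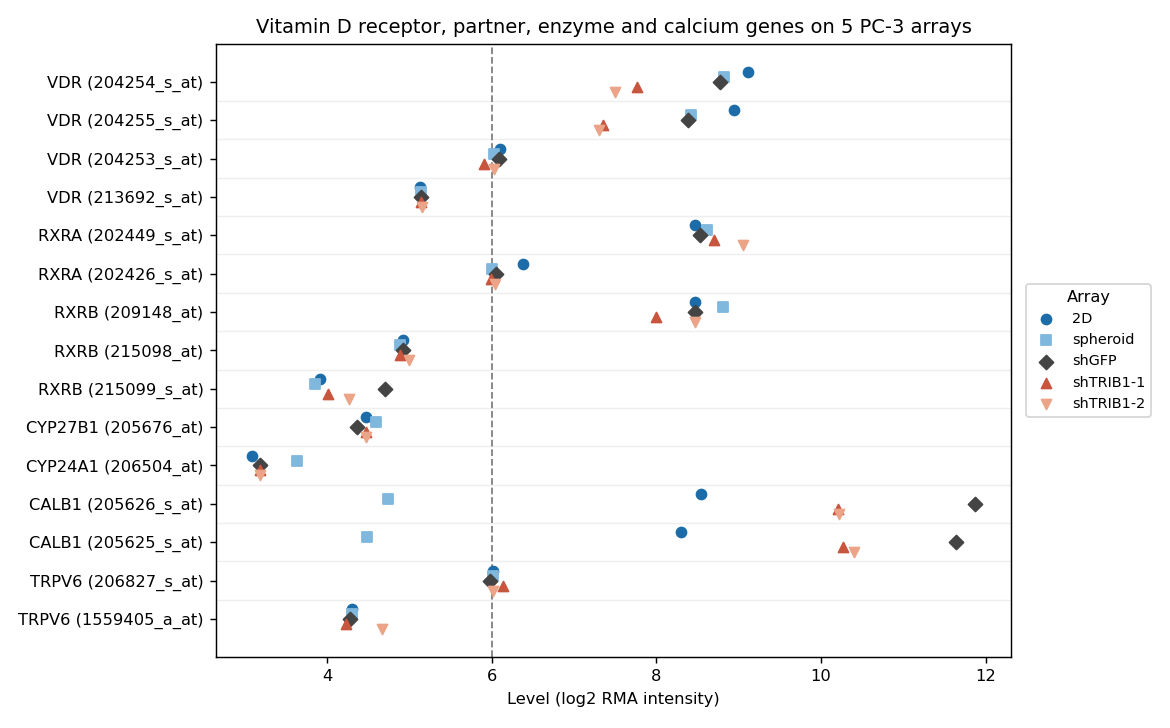
Level (log2 RMA intensity, x axis) of each probe set of the 7 genes (y axis) on the 5 arrays, 1 symbol per array, with a dashed line at a level of 6. The 2 brighter probe sets of VDR set the TRIB1 hairpin arrays (7.30 to 7.76) apart from the others (8.39 to 9.12), and both probe sets of CALB1 spread the arrays over a range of more than 7.

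With the 2D array as the reference, VDR was also lower on both TRIB1 hairpin arrays. The hairpin values are the same ones by which VDR was chosen, so this is a description and no separate support. The actin ratio also differed between the hairpin arrays and 2D, and its part was not tested. Against the 2D array, VDR (204254_s_at) differed by -1.36 with shTRIB1-1 and by -1.62 with shTRIB1-2, a mean of -1.49 ± 0.18 (SD, n = 2). With 204255_s_at the mean was -1.62 ± 0.04 (SD, n = 2). The shGFP array itself differed from 2D by -0.34 and -0.56 with the 2 probe sets, a smaller step in the same direction. Of 10668 genes, 4 were at least 2-fold lower on both TRIB1 hairpin arrays than on shGFP and on 2D at once, which is 0.0375%, and VDR was one of them. The other three were LRRC34, PRKAR2A and SHISA2. By the same rule 17 (0.159%) were higher. This rule was chosen after the values were seen, and VDR stood just past the limit, with a gap of 1.02 where 1 was needed.

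CALB1 had the widest range of the 7 genes. By 205626_s_at its level was 4.74 in the spheroid sample, 8.55 in 2D, 10.21 with each TRIB1 hairpin and 11.87 with shGFP. As intensities these were 26.8, 373.6, 1186.8 and 1187.9 for the 2 hairpins, and 3736 for shGFP. The range over the 5 arrays was 7.12, and only the TRIB1 hairpin arrays lay together. The probe set 205625_s_at gave the same order, with 4.48 in the spheroid sample, 8.29 in 2D, 10.27 and 10.40 with shTRIB1-1 and shTRIB1-2, and 11.64 with shGFP.

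Against shGFP, CALB1 was lower with both TRIB1 hairpins. The differences were -1.65 with each of them by 205626_s_at, 3.15-fold, and -1.36 and -1.23 by 205625_s_at, a mean of -1.30 ± 0.09 (SD, n = 2). That the 2 hairpin arrays differed by 0.0014 with the brighter probe set says little of their spread, since the dimmer one gave 0.13.

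The direction of the CALB1 difference depended on the reference array. The same hairpin arrays were higher than 2D, by 1.67 with each hairpin for 205626_s_at and by 1.98 and 2.11 for 205625_s_at. The control hairpin array was higher than 2D by 3.32 and 3.34 with the 2 probe sets, 10.0-fold by the brighter. Of 10450 genes, 223 (2.13%) were at least 2-fold higher with shGFP than in 2D and 221 (2.11%) were lower. CALB1 was the 5th highest of them and the only 1 of the 5 genes tested here that was 2-fold apart in either direction. Set against the mean of shGFP and 2D, the hairpin arrays differed from it by 0.0072 for CALB1 and by -1.32 for VDR. The actin ratio moved with this contrast (0.436 against 0.184), and a difference between the lines and one between the array sets cannot be told apart for shGFP against 2D.

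In the spheroid sample CALB1 was at a level near background. This compares 1 array with 1 array, the actin ratio differed too (0.131 against 0.184 in 2D), and the cause was not tested. The spheroid array differed from 2D by -3.80 with 205626_s_at and by -3.81 with 205625_s_at. The spheroid levels of 4.74 and 4.48 are below 6, so the size of this difference rests on a signal near background. With levels below 6 raised to 6 it was -2.55 (5.84-fold) and -2.29 (4.90-fold), and with 16 added to each intensity it was -3.19 by the brighter probe set. In this comparison 553 of 10570 genes (5.23%) were lower by 2-fold or more and 534 (5.05%) higher. CALB1 was the only 1 of the 5 genes tested here past 2-fold, with and without that minimum.

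VDR did not follow CALB1 in the spheroid sample. Its differences from 2D were -0.29 with 204254_s_at and -0.53 with 204255_s_at, 1.22-fold and 1.45-fold, against an SD over all genes of 0.69 in this comparison. By 204254_s_at its difference ranked 2784th from the lowest of 10570 genes. The spheroid and shGFP arrays had nearly the same VDR level (8.83 and 8.78) and differed by far in CALB1 (4.74 and 11.87). Across the 5 arrays the 2 genes thus ran in different orders, VDR highest in 2D and CALB1 highest with shGFP. The actin ratio was also lower in the spheroid sample (0.131 against 0.184), and its part was not tested.

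**Figure D2:**
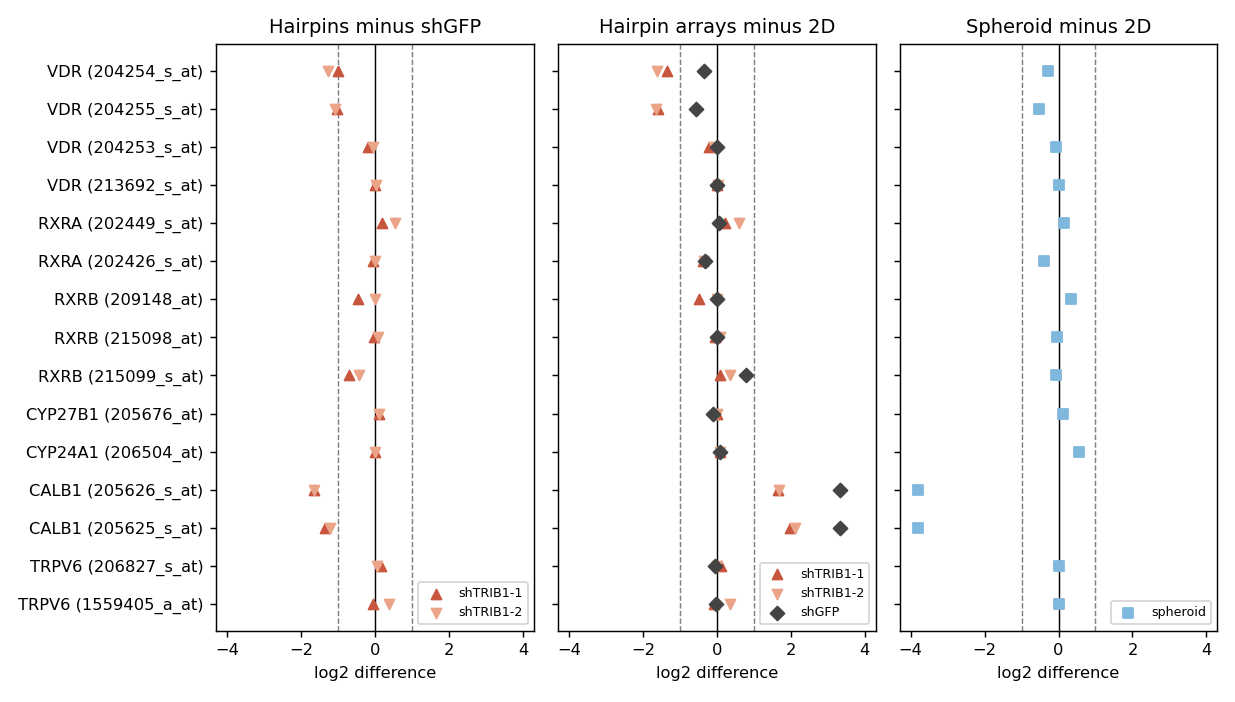
Log2 differences (x axis) of each probe set (y axis) for the TRIB1 hairpins minus shGFP, for all 3 hairpin arrays minus 2D and for the spheroid array minus 2D, with dashed lines at 2-fold. The 2 brighter probe sets of VDR lie left of 0 on the TRIB1 hairpin arrays with either reference, whereas CALB1 lies at -1.65 against shGFP and at 1.67 against 2D.

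Of the dimer partners, RXRA was present at similar levels on all arrays. By 202449_s_at it was at 8.47 in 2D, 8.61 in the spheroid sample, 8.53 with shGFP, 8.70 with shTRIB1-1 and 9.06 with shTRIB1-2. The shTRIB1-2 array was the highest, and the hairpins differed from shGFP by 0.18 and 0.53, a mean of 0.35 ± 0.25 (SD, n = 2), in the opposite direction to VDR. The probe set 202426_s_at lay from 5.99 to 6.38, near the background level, with its highest value in 2D.

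RXRB was also present on all arrays by 1 of its 3 probe sets. By 209148_at it was at 8.47 in 2D, with shGFP and with shTRIB1-2, at 8.81 in the spheroid sample and lowest with shTRIB1-1, at 7.998. The hairpins differed from shGFP by -0.47 and 0.00, so the mean of -0.23 ± 0.33 (SD, n = 2) is smaller in size than its SD. The spheroid array was higher than 2D by 0.35. The other probe sets, 215098_at and 215099_s_at, were below 6 on every array (at most 4.99 and 4.70). Equal values on different arrays are common in these data: 12.7% of all genes had exactly the same deposited intensity, to every digit given, with shGFP and shTRIB1-2, so a difference of 0.00 is no sign of precision.

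The calcitriol enzymes gave no signal above background. CYP27B1 (205676_at) lay between 4.36 with shGFP and 4.59 in the spheroid sample, and the other arrays were all at 4.47. CYP24A1 (206504_at) was at 3.09 in 2D, 3.18 on each of the 3 hairpin arrays and 3.64 in the spheroid sample. Neither gene reached 6 on any array, so neither entered the counts, and no difference can be read from them at these intensities.

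The calcium channel gene TRPV6 was flat. With 206827_s_at it stayed between 5.97 and 6.13, and with 1559405_a_at between 4.23 and 4.66. It entered the counts only because its level passed 6 on some arrays, and it was close to 6 on every one. The spheroid and 2D arrays gave the same value, 6.02, and the mean of the hairpins differed from shGFP by 0.10 ± 0.08 (SD, n = 2).

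Of the 7 genes, 5 reached a level of 6 on a compared array, namely VDR, RXRA, RXRB, CALB1 and TRPV6. Both VDR and CALB1 were at least 2-fold lower on both TRIB1 hairpin arrays than with shGFP, which is how the genes were chosen. Over all 10522 genes 9 (0.0855%) were lower by that rule and 38 (0.361%) were higher, and nothing is read from the members' count. The TRIB1 hairpin arrays were at least 2-fold apart from each other for 532 of 10412 genes (5.11%), and for 0 of these 5 genes. The largest gap among them was that of RXRB, at 0.47.

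Promoter windows from the RefSeq table (GRCh38.p14) were used for RXRA, RXRB and TRPV6, that is 3 of the 7 genes. No window of VDR, CALB1, CYP24A1 or CYP27B1 was searched, so nothing is said of their promoters. The windows used were searched on both strands for direct repeats of the kind that VDR and its partner bind. These are made of GGTCA or GTTCA on each side with 4 bases between these 5-base units. At most 1 mismatch in the 10 fixed bases was allowed. Of 35116 windows of 300 bases, 3.87% held a match. None of the windows of these 3 genes did, which says only that these letters are not in this stretch. The 250 bases before the start site of TRPV6 are shown because it is the calcitriol target among the 3 genes searched. Its level was flat on all 5 arrays. The bases lie at chr7:142885746-142885995 on the minus strand and are printed 5′ to 3′, and a match would stand in capitals.
TRPV6: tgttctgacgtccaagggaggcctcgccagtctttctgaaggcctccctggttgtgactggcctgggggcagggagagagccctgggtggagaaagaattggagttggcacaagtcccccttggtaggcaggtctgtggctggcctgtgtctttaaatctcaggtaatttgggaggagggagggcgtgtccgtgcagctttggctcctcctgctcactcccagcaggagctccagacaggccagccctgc

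The genes whose pattern over the 5 arrays was most like that of VDR were sought among 10842 other genes by the distance between levels centred on each gene's own mean. The nearest was PRKAR2A, a regulatory subunit of protein kinase A, at a distance of 0.32 (Pearson r = 0.98 over 5 arrays). Its levels were 10.99 in 2D, 10.84 in the spheroid sample, 10.91 with shGFP, 9.78 with shTRIB1-1 and 9.21 with shTRIB1-2. The next were SH3TC2 at 0.33, PTER at 0.47, PCTP, a carrier of phosphatidylcholine, at 0.49 and ZNF232-AS1 at 0.50. All 5 were lower on both TRIB1 hairpin arrays than on each other array, with mean differences of -0.56 to -1.41 against shGFP. They were picked for their likeness to VDR on these same arrays, so this direction comes with the choice and is no separate result. SH3TC2, PTER and PCTP were also lower with shGFP than in 2D, with differences of -0.62 to -0.73.

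By distance, the genes nearest to CALB1 lay farther off than those nearest to VDR. This distance grows with a gene's range, which was 7.12 for CALB1 and 1.62 for VDR. Pearson r, which does not, was much alike, 0.92 to 0.97 for the 5 genes near CALB1 and 0.94 to 0.98 for those near VDR. The nearest, PGM5, a phosphoglucomutase-like protein of adherens junctions, was at a distance of 2.10 (r = 0.97), followed by C5orf46 at 2.40, the chemokine CXCL1 at 2.46, the activin subunit gene INHBB at 2.52 and the cadherin gene CDH11 at 2.57. These genes were lowest in the spheroid sample and higher on the hairpin arrays than in 2D. CXCL1 was below 6 both in 2D (5.90) and in the spheroid sample (5.04), so no spheroid difference can be read for it. PGM5 was at 9.08 in 2D, 6.10 in the spheroid sample and 10.36 with shGFP. None had a step between shGFP and the TRIB1 hairpins of the size seen for CALB1: the mean difference was -0.03 ± 0.24 (SD, n = 2) for PGM5 and -0.07 ± 0.11 for C5orf46, and INHBB was higher by 0.55 ± 0.23. CXCL1 differed by -0.51 ± 0.21, against -1.65 for CALB1. A likeness over 5 arrays, of which 3 carry a hairpin, is a description and was not tested.

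**Figure D3:**
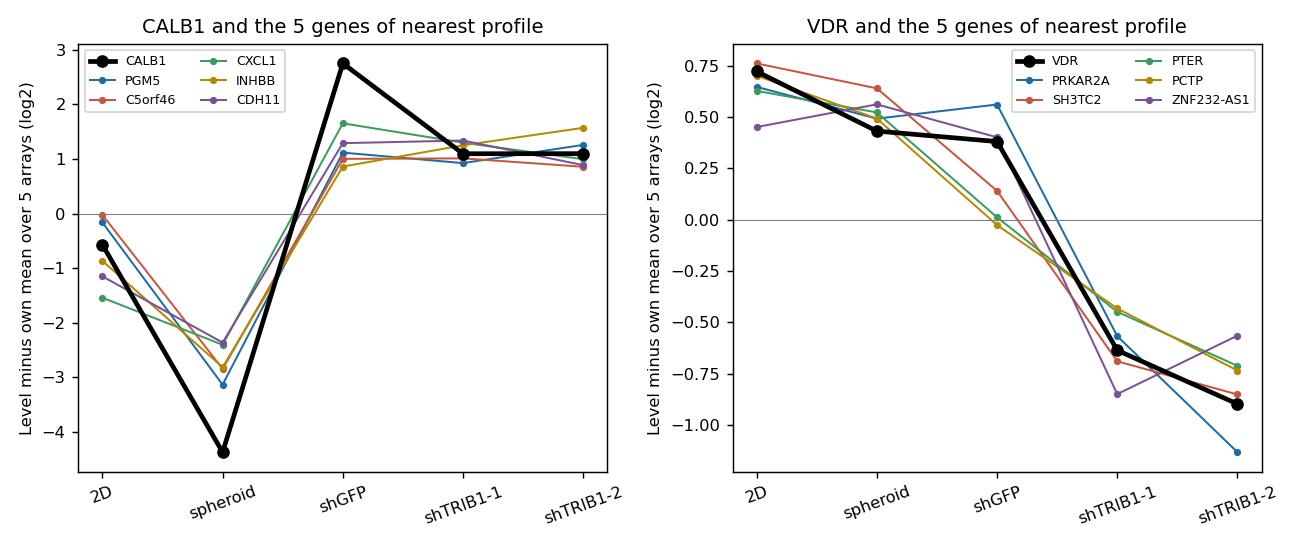
Levels minus each gene's own mean over the 5 arrays (log2, y axis) for CALB1 (left) and VDR (right) in black, with the 5 genes of smallest distance in colour, by array (x axis). The genes near VDR lie within a distance of 0.50 and those near CALB1 at 2.10 or more, a measure that grows with a gene's range. Of the genes near CALB1, only CXCL1 has its highest level with shGFP.

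The other genes of the pathway were taken from 6 lists of vitamin D enzymes and carriers, receptor coregulators, RXR partner receptors, genes that calcitriol induces or represses, and calcium-handling proteins. Of 101 such genes, 88 had a probe set and 45 reached a level of 6 in the hairpin comparison. None of the 45 was at least 2-fold higher or lower on both TRIB1 hairpin arrays, against 0.361% and 0.0855% of all genes. Their median difference from shGFP was 0.00, beside -0.03 over all genes. Of the same 45, 4 were at least 2-fold higher with shTRIB1-1 than with shGFP and 2 lower (STEAP4 and THRB). STEAP4 was below 6 on both of those arrays, at 4.18 and 5.29. With shTRIB1-2, 3 were higher (STEAP4 and THRB among them) and 1 lower. With level 6 required on shGFP or the 1 hairpin array, 4 were higher and 1 lower with shTRIB1-1, and 3 and 1 with shTRIB1-2. Over all genes by that rule, 209 were higher and 187 lower with shTRIB1-1, and 138 and 85 with shTRIB1-2. Nothing is read from these counts.

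Among 13 measured genes that calcitriol is known to induce, CALB1 and TRPV6 left aside, the hairpin differences were above 0 in 10. They were below 0 in 3, and the median was 0.29. Over all genes the median was -0.03 and the SD 0.32. The share of all genes above 0 was not counted, so nothing is read from these direction counts. By the mean of both hairpins the largest differences among the 13 were those of IGFBP3, CDKN1A, CDH1 and CLDN12. The hairpins were close to each other only for the last of these 4. IGFBP3, a binding protein of insulin-like growth factors, was at 8.89 with shGFP, 11.90 with shTRIB1-1 and 9.54 with shTRIB1-2. The cell cycle inhibitor CDKN1A was at 7.40, 9.26 and 7.55. The mean differences were 1.83 ± 1.67 (SD, n = 2) for IGFBP3 and 1.00 ± 1.21 for CDKN1A. The E-cadherin gene CDH1 differed from shGFP by 1.37 and 0.53, and the tight junction gene CLDN12 by 0.69 and 0.89, a mean of 0.79 ± 0.14 (SD, n = 2). HPGD, which degrades prostaglandins, was lower than shGFP with 1 hairpin and higher with the other, at 9.97 with shGFP, 9.21 with shTRIB1-1 and 11.56 with shTRIB1-2.

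Of 43 pathway genes at level 6 in that comparison, 6 were at least 2-fold higher and 0 lower, against 5.05% and 5.23% of all genes, and the median was 0.10 beside -0.01. The 6 were HPGD (9.94 in 2D, 11.89 in the spheroid sample), CDKN1A (7.62, 8.94), GADD45A (9.91, 11.15), IGFBP3 (8.87, 9.99), the thyroid hormone receptor gene THRB (7.51, 9.87) and the fatty acid receptor gene PPARA (6.12, 7.85). Of these, 4 (all but the receptor genes) stand in the list of induced genes, of which 11 besides CALB1 and TRPV6 were measured, with a median of 0.63. With the median over each gene's probe sets PPARA differed by 0.68 and IGFBP3 by 0.92, below 2-fold. Of the 6, only GADD45A was higher with shGFP (11.55) than in the spheroid sample. CALB1, which is in that list too, differed by -3.80.

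The remaining lists held no gene past 2-fold on both hairpins or in the spheroid sample. Of 11 coregulators, 10 lay below 0 with the hairpins, with a median of -0.19 against an SD over all genes of 0.32. The share of all genes below 0 was not counted, so nothing is read from that count. BAZ1B, a chromatin remodeller that binds VDR, had the largest difference among the coregulators, -0.92 between spheroid and 2D. By the median over its probe sets it was -0.36. Among 3 measured enzyme and carrier genes the largest was that of DHCR7, which uses up the precursor of vitamin D, at -0.87 in the spheroid sample. MYC was the 1 measured gene of the repressed list, with -0.17 ± 0.23 (SD, n = 2) for the hairpins and -0.20 for the spheroid sample. Among 11 other calcium-handling genes the median was 0.04 for the hairpins. The largest difference was that of the calcium release channel ITPR3, -0.55 and -1.54 with the 2 hairpins. By the median over its probe sets the mean of the hairpins differed from shGFP by -0.39 for ITPR3. The related calcium binders CALB2 and S100G and the channel gene TRPV5 were below 6 on all arrays, at no more than 4.86, 3.64 and 4.88.

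**Figure D4:**
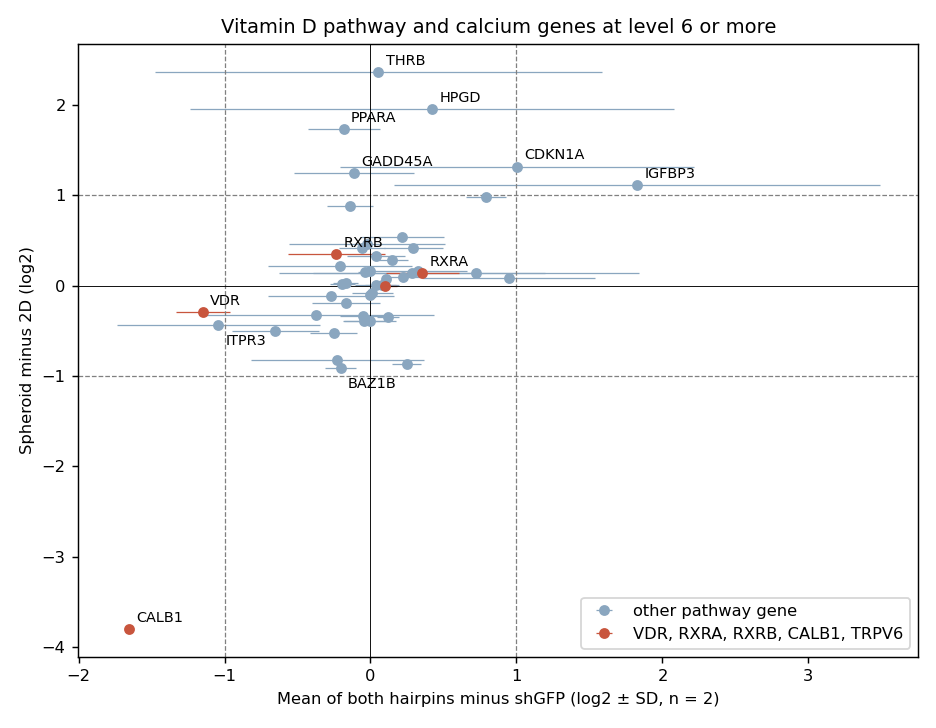
Spheroid minus 2D (log2, y axis) against the mean of both TRIB1 hairpins minus shGFP (log2, x axis, bars are SD, n = 2) for pathway and calcium genes at level 6 or more, with dashed lines at 2-fold. CALB1 lies alone at -1.65 and -3.80, VDR at -1.15 and -0.29, and the 6 genes above the upper line are those named in the text.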

How the data were processed

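Expression was measured on 5 Affymetrix arrays of PC-3 RNA, labelled as cRNA from 100 ng of total RNA per the labels' protocols. The deposited values are linear probe set intensities that the authors made with RMA, per the submitters' processing notes. The sources used here give neither its version nor the chip definition. Groups came from the sample labels. Log2 was taken without a pseudocount. Names came from the platform annotation, and 1801 probe sets with several symbols were left out. For each gene the probe set of highest mean level over the 5 arrays was used, and genes at a level of at least 6 on a compared array were counted at 2-fold. Arrays have no depth, and their number limits the precision. Nothing in the labels says that arrays came from separate cultures.

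The 7 genes, the lists and the rules were chosen with earlier results of these data known. Named were all members, list genes past 2-fold or, where a list had none, its largest difference, and the 5 genes nearest to VDR and to CALB1. Limma (3.58.1, intensity trend, Benjamini-Hochberg) was fitted to the hairpin and shGFP arrays after a test on simulated data. It has 1 residual degree of freedom and called 0 of 10522 genes, 356 having an unadjusted p under 0.05. No p is given for a member. Alternatives changed the probe set rule, level filter, pseudocount, centring, reference array and hairpin. Some genes of the marker list are not reported here.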

Additional observations from a re-analysis of the deposited data

How the results depend on the processing

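Each difference between hairpins and shGFP rests on 1 control array and 2 different hairpins, and those between spheroid, 2D and shGFP on 1 array each. For VDR the hairpin difference was -0.60 as the median over its probe sets, 2 of which are near background. For CALB1 it was -1.48 by that median, -1.64 with 16 added to each intensity and -1.62 with array medians centred, and it turned to 0.0072 with the mean of shGFP and 2D as the reference. For CALB1 in the spheroid sample the difference was -3.19 with 16 added, -5.46 against that mean and -2.55 with levels below 6 raised to 6, a setting chosen after seeing the data. Centring moved no array by more than 0.022.

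Over all genes, the numbers 2-fold lower and higher on both hairpins were 4 and 20 with the median over probe sets and 32 and 82 against the mean of shGFP and 2D. The number higher was 23 at a level filter of 8 and also with 16 added, and 330 were higher in the spheroid sample at that filter. With 1 hairpin left out, 85 to 187 genes were lower and 138 to 209 higher, and among pathway genes at level 6 on shGFP or the array kept, 1 was lower and 3 to 4 higher. In limma, 0 genes were called without the trend and at either other level filter, with 182 to 1616 genes at an unadjusted p under 0.05 over all settings. No other setting reversed a difference past 2-fold. No paired analysis was possible because 2D, spheroid and shGFP had 1 array each and the labels record no pairing.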
